A study of Mus musculus with 3 samples.

Results

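Cells with a raised share of mitochondrial RNA were described in single-cell RNA-sequencing data of mouse intestinal epithelium. They were chosen by a rule on the counts: a cell barcode with at least 500 genes detected and with more than 15% but at most 25% of its unique molecular identifiers (UMIs, 1 per captured transcript) from genes of the mitochondrial genome. The rule held for 1735 of 25554 barcodes (6.79%), called raised-share cells below. They were set against 5594 reference cells, which had at least 1000 genes and at most 15% mitochondrial UMIs. The mitochondrial share and the number of genes chose both groups, so values of either are given as a description, with no test.

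The 3′ libraries (10x Genomics) were 2 replicates of VillinCreERT2 with a floxed Arid3a gene (Arid3a fl/fl, labelled Arid3a cKO) and 1 control with VillinCreERT2 (WT). Mice of both genotypes received tamoxifen at an age of 8 to 10 weeks, with tissue taken 1 month later (counted from the first injection), so recombinase and drug were shared by cKO and WT. The Villin promoter drives the recombinase in the intestinal epithelium, so the deletion is directed to that tissue. Crypts were dissociated, and DAPI-negative cells with Epcam and without CD45 or CD31 were sorted. Raised-share cells numbered 399 of 6845 barcodes in Arid3a cKO 1 (5.83%, exact binomial 95% interval 5.29 to 6.41), 551 of 6893 in Arid3a cKO 2 (7.99%, 7.36 to 8.66) and 785 of 11816 in WT (6.64%, 6.20 to 7.11). Intervals here and below cover counting error only. The mean of the cKO libraries was 6.91% and lay 0.27 percentage points above WT, less than the SD of 1.53 between the cKO libraries. Many more barcodes lay above the range. Those above 25%, with any number of genes, were 60.3% of barcodes in Arid3a cKO 1 and 67.5% in Arid3a cKO 2. In WT, 2455 barcodes of at least 500 genes lay above 25% and up to 50%, and 549 above 50%. The shares given are thus those of a middle range, not of all barcodes with a high mitochondrial share.

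Mitochondria carry their own small genome, which encodes ribosomal RNAs (rRNAs), transfer RNAs and a few subunits of the respiratory chain, while the nucleus encodes the other subunits. In single-cell data a high mitochondrial share is a usual mark of stressed or leaking cells, and it is also a trait of cell types rich in mitochondria, such as the absorptive enterocytes of the intestinal villus. Transcripts held in the nucleus, among them Malat1 and Neat1, and rRNA-like transcripts are often reported together with it.

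The transcripts listed as markers of these cells, which the rule itself did not use, are Gm42418 and Gm26917, which the annotation (GENCODE M21, genome build GRCm38) lists as long noncoding RNAs next to each other on the plus strand of chromosome 17. Gm26917 spans chr17:39843013-39846341 and Gm42418 chr17:39846958-39848788. RefSeq places an 18S rRNA copy, Rn18s-rs5, at bases 39846354 to 39848202 of the same build. Gm26917 thus ends 12 bases before that copy, and 1245 bases of Gm42418 lie inside it. The start of the Gm42418 transcript is shown because it holds a stretch of 19 bases (capitals, from base 13) that small-subunit rRNA is known for. Of 141767 annotated transcripts, 2 held this stretch on either strand (0.00141%), namely Gm42418 itself and the antisense rRNA gene CT010467.1. The last 40 bases of Gm26917 (bases 3290 to 3329 of its longest transcript), the stretch nearest to the rRNA copy, follow it. The third sequence is the mature product of Mir6236 with its seed in capitals, a seed that 1 of 1738 mature mouse miRNAs in RefSeq carried. The 3′ counts of Mir6236 are UMIs assigned to its 123-base gene (chr9:110281287-110281409) and do not measure the mature miRNA.
Gm42418: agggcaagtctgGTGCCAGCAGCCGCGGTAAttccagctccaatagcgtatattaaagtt
Gm26917: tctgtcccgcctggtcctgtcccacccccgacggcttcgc
mmu-miR-6236: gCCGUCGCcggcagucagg

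Raised-share cells were shallower than reference cells. Their median UMI counts were 12844, 11461 and 12615 in Arid3a cKO 1, Arid3a cKO 2 and WT, the order used throughout, against 31391.5, 35764 and 29895 in reference cells. Median gene numbers were 2894, 2874 and 2965 against 4905.5, 5052.5 and 4791.5. The median count of mitochondrial UMIs per cell was larger (2674, 2398 and 2607 against 1435.5, 1445.5 and 1673.5). Only 41 raised-share cells had under 1000 genes. At the lower limit of the rule, cells at 14 to 15% had median gene numbers of 3138, 3387.5 and 3723, and those at 15 to 16% had 3303, 3264 and 3196. At the upper limit, cells at 24 to 25% had 2564, 2827 and 2787 genes and cells at 25 to 26% had 2834, 2586 and 2639. No barcode of a raised-share cell occurred in the raised-share cells of another library. Doublets were not called, and cells of the highest UMI counts were left out in an alternative instead.

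The sort for epithelial cells could be checked on marker lists. All 8 epithelial markers, such as Epcam, were present in raised-share cells, with a summed level of 6496, 5937 and 5881 CPM (UMIs per 1000000 non-mitochondrial UMIs of the cells summed) against 8057, 7613 and 7042 in reference cells. Stromal, endothelial, myeloid and B cell markers were near 0, and T cell markers were low but present, with 242 UMIs in raised-share cells. The 9 T cell markers summed to 3.28, 0.778 and 27.2 CPM against 3.99, 20.5 and 37.2, and at resolution 0.8 a T cell-like cluster of 12 cells held 2 raised-share cells. Of the stromal markers 5 of 8, Col1a1 and Col1a2 among them, had no UMI in any raised-share cell. Endothelial markers came to 17 UMIs in all, with 3 of 5 at 0, myeloid markers to 22 with 2 of 5 at 0, and B and plasma cell markers to 21 with 2 of 7 at 0.

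Gm42418 was the most abundant of the transcripts that marked raised-share cells. It was at 207122, 171205 and 203573 CPM in them and at 33169, 25467 and 43049 CPM in reference cells. Gm26917 was at 1100, 1795 and 1420 CPM against 182, 143 and 222. For neither gene did the groups overlap, and the share of all genes without overlap is not given here. Both had been picked from these data, so no test result is given for them. They do count among the genes tested and called below. Cell by cell the spread was wide. The median share of Gm42418 was 12.3%, 11.5% and 14.4%, while the cell at the 90th percentile held 59.3%, 44.4% and 50.1%, so cells with very high values weighed heavily in the sums. The median reference cell held 2.98%, 1.81% and 3.17% of it.

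Cells were also binned by mitochondrial share, below and above the limits of the rule. From the bin of 0 to 5% to that of 50 to 100%, Gm42418 went from 2.34% to 36.6% of non-mitochondrial UMIs in Arid3a cKO 1, from 1.53% to 42.3% in Arid3a cKO 2 and from 2.27% to 33.2% in WT. The 10 to 15% bin, which belongs to the reference cells, already held 9.59%, 10.7% and 14.4%. In Arid3a cKO 2 and WT the share was slightly lower at 20 to 25% (16.8% and 18.9%) than at 15 to 20% (17.5% and 21.9%). The transcripts of cytosolic ribosomal protein genes fell over the same bins in every library up to the bin of 25 to 50%, from 17.5% to 2.45% in Arid3a cKO 1. Bins differ in their makeup by cell type as well as in mitochondrial share, and these cannot be told apart in the sums.

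**Figure D1:**
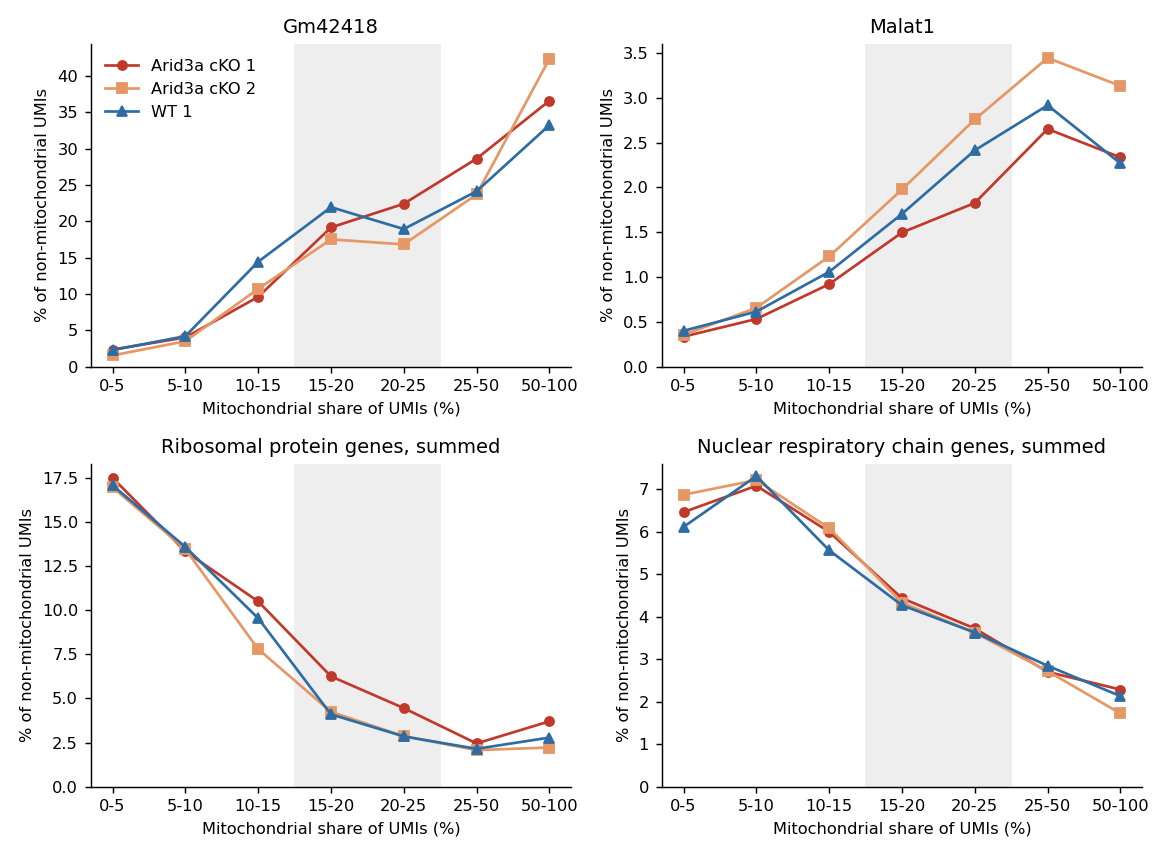
Share of non-mitochondrial UMIs (%) held by Gm42418, Malat1, the summed cytosolic ribosomal protein genes and the summed nuclear-encoded respiratory chain genes, by bin of mitochondrial share (%), 1 line per library. The grey band marks the 15 to 25% range of raised-share cells, where Gm42418 lay between 16.8% and 22.4% in the 3 libraries.

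To ask which cell types the raised-share cells were, both groups were clustered together after mitochondrial genes and rRNA-like transcripts had been left out, and clusters were named from marker lists. Raised-share cells were mostly enterocyte-like: 77.9% (73.6 to 81.9), 88.0% (85.0 to 90.6) and 86.1% (83.5 to 88.5) of them, against 28.9%, 32.7% and 28.7% of reference cells. The mean difference was 53.9 percentage points with an SD of 4.36 over 3 libraries, and it was positive in each. Most of these raised-share cells lay in clusters with under 3 enterocyte markers among the top 50 genes. Such clusters held 989, 368 and 45 of them, with 2, 2 and 0 markers there. They were named by markers at 1.5 times the other cells or more, a rule set after the clusters had been seen. Crypt classes were thinner. The intestinal stem cell-like (ISC-like) class differed by -15.6, -15 and -16.9 percentage points, the transit-amplifying-like (TA-like) class by -3.43, -9.61 and -10.8, and the goblet-like class by -3.98, -6.72 and -5.85. Paneth-like cells were nearly missing, with 0 of 399, 1 of 551 and 0 of 785 raised-share cells against 34, 17 and 31 reference cells. A count of 0 allowed a share of up to 0.920% in Arid3a cKO 1 and 0.469% in WT (upper exact 95% bound). The Paneth-like cluster had a median mitochondrial share of 0.458%, far from the 15% of the rule. The ISC-like, TA-like and goblet-like clusters had 4.56%, 4.12% and 2.98%. The part of these starting levels in the counts was not tested. Tuft-like cells had no common direction, at 0.79, -1.84 and -4.15 percentage points, and their cluster was also led by enteroendocrine genes such as Cck and Gip. With 3 libraries the smallest p an exact two-sided sign-flip test can give is 0.25, so no test was made of these shares.

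**Figure D2:**
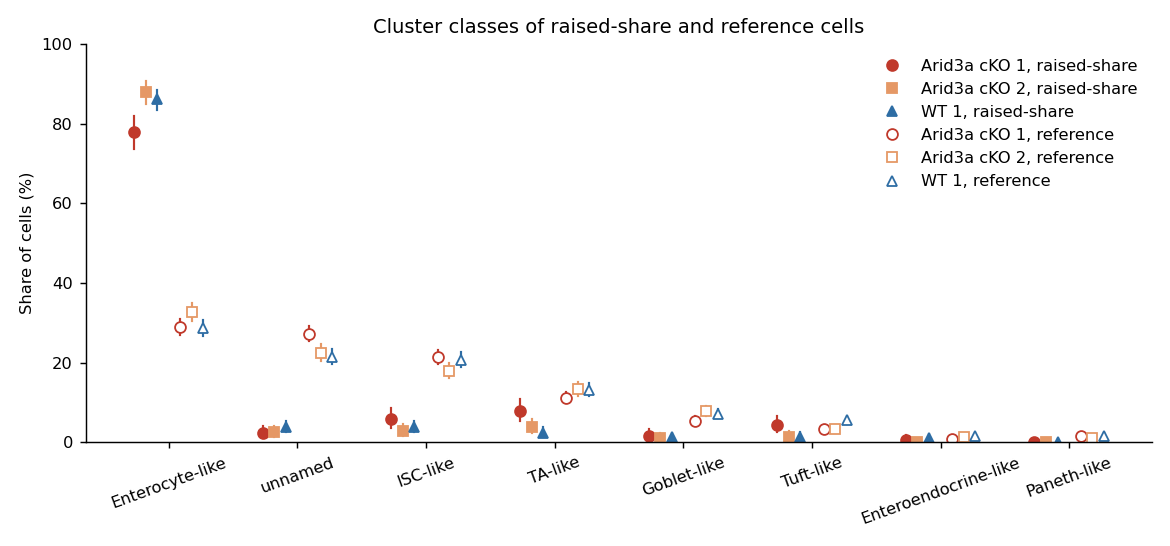
Share of cells (%) in each cluster class, for raised-share cells (filled) and reference cells (open) of each library; bars are exact binomial 95% intervals. Enterocyte-like cells make up 77.9% to 88.0% of raised-share cells and 28.7% to 32.7% of reference cells.

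The enterocyte-like class held different clusters in the groups. Of the raised-share cells, 989 (57.0%) lay in a cluster led by Gm42418, Gm44974, Cubn and Gm26917, which took in 263 reference cells (4.70%). A cluster led by Akp3 and S100g had 368 raised-share and 433 reference cells. At a finer resolution of 0.8 it came apart by group: 357 of its raised-share cells (97%) and 84 of its reference cells (19.4%) lay in a cluster led by Akp3 and Tmprss15, and the others in a cluster led by S100g. Another cluster, led by Dnase1, Reg3a and Leap2, had 70 raised-share and 939 reference cells. A small cluster led by interferon genes such as Ifit3 had 45 and 37. A further cluster led by Ms4a18 and Car4 had too few markers to be named and held 53 raised-share cells (3.05%) and 23.9% of reference cells. When each raised-share cell was instead given the class of its nearest reference cells, 1635 of 1735 (94.2%) kept their class, but the difference in enterocyte-like cells came to 41.9 points, with 40.3%, 42% and 39.4% of reference cells then named enterocyte-like.

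UMIs were then summed over the cells of each library and group, and the groups were compared by edgeR's quasi-likelihood test with the library as a block, Benjamini-Hochberg adjustment and a threshold of 0.05. The labels number the libraries as replicates without saying that each is a separate animal, and p-values measure only the spread between these libraries, which may be technical. Mitochondrial genes and their nuclear copies were not tested. Of 14710 genes, 9522 (64.7%) were called, 4401 (29.9%) higher and 5121 (34.8%) lower in raised-share cells. With so many calls, a count within a gene list is to be read against these shares. The log2 fold change had a median of -0.08 over all genes, or 0.09 without TMM scaling.

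Beyond Gm42418 and Gm26917, Lars2 and Mir6236 rose. Lars2, the mitochondrial leucyl-tRNA synthetase (chr9:123366927-123462666), was at 4514, 5504 and 4604 CPM against 778, 648 and 793, a log2 fold change of 2.54 ± 0.17 (SE) with an adjusted p of 7.10e-09. All 3 raised-share values were above all reference values, in a test that called 29.9% of all genes higher. How many of all genes had no overlap is not given here. Lars2 shares a stretch of 72 bases at 98.6% identity with Gm15564, so UMIs from the shared stretch are uncertain; Gm15564 itself was at 6.56, 5.83 and 7.40 CPM against 0.963, 0.629 and 1.05. Mir6236 was at 450, 437 and 146 CPM against 78.6, 56.9 and 27.2 (2.45 ± 0.12), higher in the cKO libraries than in WT in both groups. AY036118, antisense to Gm42418, had no UMI in either group.

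RNAs held in the nucleus rose as well. Malat1 was at 16552, 24080 and 20748 CPM in raised-share cells and at 4342, 4795 and 5528 CPM in reference cells (log2 fold change 1.87 ± 0.20, adjusted p 6.96e-07). Neat1, which builds nuclear paraspeckles, was at 830, 1061 and 787 against 331, 279 and 291 CPM. Rn7sk, the 7SK RNA that holds back transcription elongation, was at 325, 471 and 319 against 90.6, 61.2 and 86.8 CPM. Rmrp rose from a low level (4.92, 5.25 and 6.55 against 1.14, 0.845 and 1.98 CPM). In all, 4 of the 6 tested nuclear noncoding RNAs were higher, and Kcnq1ot1 was the 1 lower, at 18.3, 14.4 and 5.70 against 22.1, 18.1 and 19.9 CPM.

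Transcripts known to keep introns and stay in the nucleus moved in the same direction, with 11 of 15 higher, 1 lower and a median log2 fold change of 0.77. Nktr was at 275, 344 and 330 CPM against 119, 110 and 134, and Clk1, a kinase of splicing factors, at 176, 250 and 240 against 93.1, 85.8 and 104. Rsrp1 showed 467, 607 and 595 CPM against 216, 176 and 227. In each of these the groups did not overlap, but the share of all genes without overlap is not given here. The test called 29.9% of all genes higher. Srsf7, which encodes a splicing factor, was the 1 lower member, at 58.3, 46.7 and 53.5 against 124, 125 and 146 CPM.

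Cytosolic ribosomal protein transcripts were lower without exception: 79 of 79 tested genes were called lower, with a median log2 fold change of -2.17. Rps2 was at 991, 571 and 531 CPM against 3951, 3823 and 3453 (-2.66 ± 0.19, adjusted p 1.01e-08), and Rpl41 at 1729, 1348 and 1375 against 3696, 4282 and 4385. These genes are known to be high in dividing crypt cells, which were fewer among raised-share cells. The part of cell makeup in this fall was not tested, and values within enterocyte-like cells are given below. The nuclear-encoded respiratory chain fell too, although the mitochondrial share was raised. Of 76 tested genes, 63 were lower and 1 was higher (median -0.96). Cox8a, a subunit of cytochrome c oxidase, was at 1050, 893 and 799 CPM against 2682, 2782 and 2495, and Ndufa4 at 699, 627 and 638 against 1625, 1720 and 1562. Cox4i1 differed less (2130, 2076 and 2199 against 3041, 3073 and 2850). The 1 higher gene was Atp5sl, at 53.4, 68.8 and 53.5 against 33.2, 35.4 and 34.1 CPM. The list took it in by the pattern of its name, so it need not be a subunit.

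Because class makeup differed so strongly, the test was repeated on enterocyte-like cells alone: 311, 485 and 676 raised-share against 617, 507 and 548 reference cells. Most of the former lay in the cluster led by Gm42418 and most of the latter in that led by Dnase1. Of 11263 genes, 7419 (65.9%) were called, 3793 (33.7%) higher and 3626 (32.2%) lower. Without TMM scaling the split was 6032 higher and 2175 lower, and the median of all genes moved from 0.06 to 0.43, so small differences in either direction depend on the scaling. In the cluster led by Akp3 and S100g alone, an alternative added after the data were seen in which the groups still lay mostly in different finer clusters, 4914 of 8645 genes (56.8%) were called, 2447 (28.3%) higher and 2467 (28.5%) lower.

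Nuclear RNAs and rRNA-like transcripts stayed apart within enterocyte-like cells. Gm42418 was at 238319, 184759 and 222346 CPM against 56840, 52756 and 91948. Lars2 was at 4836, 5834 and 4843 CPM against 1239, 1182 and 1260 (log2 fold change 1.71 ± 0.10), and Malat1 at 16581, 25414 and 21595 against 5251, 6653 and 6822 (1.39 ± 0.12). Of the nuclear noncoding RNAs 5 of 6 were higher, and of the intron-keeping transcripts 13 of 15 were higher and 1 was lower. Rn7sk, at 184, 403 and 307 against 51.6, 52.5 and 70.1 CPM, was among the genes with the largest differences. In the Akp3 and S100g cluster 4 of 4 noncoding RNAs and 13 of 15 intron-keeping transcripts were higher, again between groups that finer clustering set apart.

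Ribosomal protein and respiratory chain transcripts were lower in enterocyte-like cells as well. Of the ribosomal protein genes 77 of 78 were called lower (median -1.20), and in the Akp3 and S100g cluster 78 of 78 (median -1.76). Rps2 was at 420, 248 and 235 CPM against 873, 768 and 620. Of the respiratory chain genes 75 of 76 were lower (median -1.49), a larger median than over all cells. Cox7c was at 696, 688 and 564 CPM against 1953, 2288 and 2178, and Cox8a at 894, 725 and 668 against 2966, 3040 and 2783 (-2.32 ± 0.11). Without TMM scaling 71 of the 76 were still lower, with a median of -1.12.

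**Figure D3:**
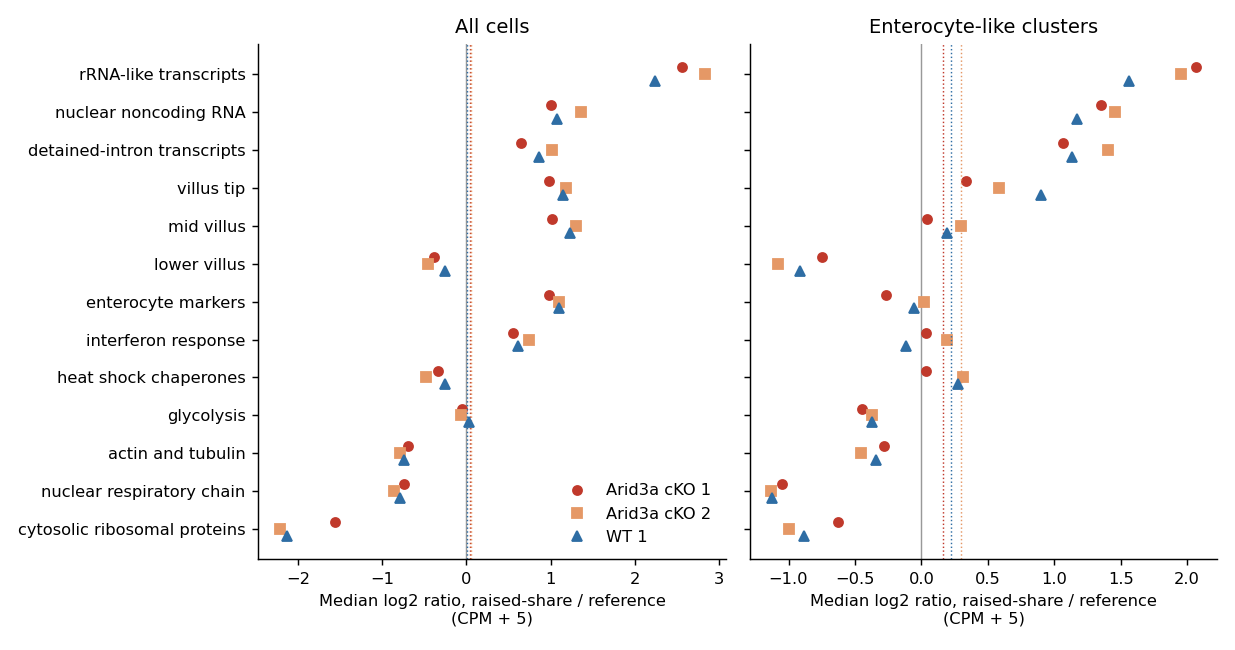
Median over each gene list of the log2 ratio of raised-share to reference cells (CPM + 5), 1 point per library, for all cells and for enterocyte-like clusters. Dotted lines give the median of all genes tested in each library. In both panels rRNA-like, nuclear noncoding and intron-keeping transcripts lie to the right in every library. Ribosomal protein and nuclear respiratory chain genes lie to the left. Of the rRNA-like transcripts, Gm42418 and Gm26917 had been picked from these data, so their place is a description.

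The same directions were seen in the other classes with at least 10 raised-share cells in a library. In ISC-like cells (23, 16 and 30 of them) Malat1 was at 7457, 7956 and 9190 CPM against 2918, 3244 and 3888, and summed ribosomal protein transcripts were at 228040, 207461 and 183392 CPM against 268807, 272958 and 260357. In TA-like cells (31, 21 and 19) the sum was 138550, 125692 and 126260 CPM against 243155, 243558 and 245423. As a ratio of raised-share to reference cells the sum was 0.848, 0.76 and 0.704 in ISC-like cells, 0.57, 0.516 and 0.514 in TA-like cells and 0.662, 0.518 and 0.577 in enterocyte-like cells. The ISC-like and TA-like values rest on few cells and were not tested. The UMIs that CPM are scaled to include Gm42418, which was higher in raised-share cells of these classes by unlike amounts. In ISC-like cells it was at 64086, 57350 and 94414 CPM against 25109, 15466 and 28080. Its part in the ratios was not tested.

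Enterocyte genes did not move as a block. Over all cells, 10 of 17 enterocyte markers were higher and 2 were lower (median 0.90), beside the larger share of enterocyte-like cells. Within enterocyte-like cells 2 were higher and 10 lower (median -0.46), but 7 higher and 8 lower without TMM scaling (median -0.10). The same markers had named these clusters, so their values there are no independent result. The cluster led by Dnase1 was named by 7 markers among its top 50 genes. That led by Gm42418 was named by 12 of 17 markers at 1.5 times the other cells or more. The Akp3 and S100g cluster was named in this way by 16 of 17, and the interferon cluster by 17 of 17. The markers that were lower there include the abundant carriers of lipid and retinol. Fabp1, the liver-type fatty acid-binding protein, was at 7831, 6323 and 5517 CPM against 30251, 29279 and 27204 (-2.52 ± 0.15, adjusted p 8.89e-14). Fabp2 was at 7257, 5969 and 5294 CPM against 21173, 19930 and 18313, and Rbp2, the retinol-binding protein, at 9302, 8329 and 7226 against 22685, 23387 and 19825. Fabp1 was also lower over all cells (6701, 5851 and 5219 against 10634, 10786 and 9790 CPM).

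Other enterocyte genes differed little. Lct, which encodes lactase, was at 831, 1090 and 973 CPM in raised-share and at 719, 753 and 789 CPM in reference enterocyte-like cells, with a log2 fold change of -0.02 ± 0.08 (adjusted p 0.87) after TMM scaling. That sign turned to 0.35 without TMM scaling, to 0.32 at a clustering resolution of 0.8 and to 0.27 in the Akp3 and S100g cluster, each past the threshold. Alpi, intestinal alkaline phosphatase, was at 1312, 1751 and 1203 against 1040, 1204 and 950 CPM (0.04 ± 0.09, adjusted p 0.69). It was called higher without TMM scaling (0.41), with the filter on a mean of at least 20 CPM (0.20) and at resolution 0.8 (0.22). Slc5a1, the glucose transporter, was at 2092, 2389 and 2487 CPM against 1516, 1406 and 1598 (0.26 ± 0.09) and Apob, the scaffold of chylomicrons, at 2784, 3404 and 2329 against 2032, 2014 and 1591 (0.22 ± 0.09), both called higher. Those calls were lost without WT (edgeR adjusted p 0.243 and 0.296) and without the block (0.0502 and 0.215), and that of Apob also without Arid3a cKO 2 (0.0846).

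Genes that mark positions along the villus were compared from lists written for the lower, middle and tip regions. In enterocyte-like cells 7 of 9 lower villus genes were lower and 2 were higher (median -1.30). Reg1 was at 6522, 5470 and 4323 CPM against 16155, 15944 and 11562, and Il18, an interleukin of the epithelium, at 221, 221 and 208 against 417, 503 and 396. Of 10 middle villus genes 3 were higher and 5 lower (median -0.19, or 0.17 without TMM scaling). Of 10 villus tip genes 6 were higher and 2 lower (median 0.76). Among the 7 with a mean of at least 20 CPM 3 were higher and 1 was lower, with a median of -0.005, and in the Akp3 and S100g cluster 3 of 8 were higher and 2 lower (median 0.36).

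The tip genes of the purine pathway were low in enterocyte-like reference cells. Slc28a2, a nucleoside transporter, was at 13.2, 13.2 and 39 CPM in raised-share against 0.351, 2.91 and 0.696 CPM in reference cells (3.65 ± 0.34). Nt5e, which makes adenosine from AMP, was at 1.76, 5.27 and 22.7 against 0.234, 1.29 and 0.348 CPM. Ada, adenosine deaminase, was at 95.9, 90.2 and 189 CPM against 2.75, 58.0 and 4.46, where the reference cells of Arid3a cKO 2 stood apart. Enpp3 was at 95.6, 143 and 100 CPM against 28.9, 51.5 and 31.1 (1.25 ± 0.08). Clca4a, among the 5 leading higher genes of these clusters, was at 47.4, 14.3 and 90.6 CPM against 0.701, 0.609 and 1.18 (5.56 ± 0.18, adjusted p 1.91e-17). Its level in raised-share cells varied widely between libraries and was lowest in Arid3a cKO 2.

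Among the genes with the largest falls within enterocyte-like cells were short transcripts of diverse roles. Mrpl34, a protein of the mitochondrial ribosome, was at 75.9, 67.6 and 62.4 CPM against 323, 287 and 277. Gng5, a G protein subunit, was at 174, 158 and 146 against 659, 698 and 649 CPM, and Sar1b, needed for the export of chylomicrons from the endoplasmic reticulum, at 124, 101 and 116 against 460, 485 and 449. Tmem14c was at 110, 96.1 and 102 CPM against 410, 389 and 369. In each of these genes all raised-share values were far below all reference values. Such genes had been ranked by the smallest absolute log2 ratio over libraries, so this gap was part of their choice.

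Over all cells, the genes with the largest differences included brush border and Paneth cell genes. Besides Lars2 and Mir6236, those higher were Enpp3, Akp3, Ggt1, H2-Bl, Gm10499 and AC132852.2. Ggt1, a brush border peptidase, was at 888, 1233 and 1151 CPM against 232, 265 and 263, and Akp3, an alkaline phosphatase, at 141, 283 and 64.9 against 30.9, 46.5 and 12.2. The genes with the largest falls were mostly products of Paneth cells, whose cluster held 83 cells, 1 of them raised-share, with a median of 127400 UMIs. Without the 5% of barcodes with the most UMIs in each group and library, the median log2 fold change of the Paneth markers went from -5.11 to -1.21, and 7 of 10 were called lower. Lyz1, lysozyme, was at 97.4, 170 and 67.1 CPM against 2893, 3116 and 2319, and Ang4 at 11, 13.4 and 12.5 against 464, 349 and 329. The defensins Defa17, Defa24, Defa29 and Defa30 and the related AY761184, Gm14851 and Gm7861 fell with them, but their sequences are near-identical and reads may be split between copies. Clps, which encodes colipase, was at 8.67, 9.53 and 12 against 305, 270 and 291 CPM.

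Markers of the crypt and of secretory cells fell along with the shares of their clusters, and fewer cells of a type cannot be told apart from less RNA per cell in the sums. All 9 ISC markers, all 11 TA markers, all 9 goblet markers and all 10 Paneth markers were lower (7 of 10 without the barcodes of the most UMIs), as were 12 of 13 enteroendocrine markers. Olfm4, an ISC marker, was at 83.4, 32.3 and 25.4 CPM against 158, 135 and 163, and the goblet gene Agr2 at 75.4, 35.8 and 44.2 against 502, 968 and 837. Within enterocyte-like clusters, in contrast, 8 of 10 Paneth markers and 6 of 8 tested enteroendocrine markers were higher. Defa24 was at 513, 395 and 494 CPM there against 192, 142 and 226, and the 10 markers summed to 907, 714 and 979 CPM against 363, 290 and 443. Free RNA of burst cells gives such counts in droplets, and its part in this difference was not tested.

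Stress programmes showed no common direction. Of 16 immediate early genes 3 were higher and 4 lower over all cells, and 6 and 3 within enterocyte-like cells, where Jun was at 1242, 1595 and 1590 CPM against 709, 792 and 864. Without TMM scaling 12 of the 16 were higher within enterocyte-like cells. Heat shock chaperones were mostly lower over all cells (8 of 12 lower, 1 higher). Hspe1 and Hspd1, the chaperonins of the mitochondrial matrix, were at 236, 176 and 215 against 825, 916 and 1035 CPM and at 177, 143 and 161 against 461, 469 and 505 CPM. Within enterocyte-like cells 2 of 11 chaperones were higher and 4 lower, and their median turned from -0.15 to 0.22 without TMM scaling.

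In the list of the unfolded protein and integrated stress responses 3 of 15 genes were higher and 7 lower in either comparison. Ddit3, the factor CHOP, was among the higher ones, at 78.7, 85.5 and 82.9 CPM against 53.9, 35.9 and 41.0, while within enterocyte-like cells the chaperone partner Sdf2l1 was at 11.2, 8.78 and 12.3 against 45.1, 50.4 and 56.4. Of the p53 targets and apoptosis genes 7 of 15 were higher and 5 lower over all cells, and 3 of 14 were higher and 7 lower within enterocyte-like cells. Bax, which opens the outer mitochondrial membrane in apoptosis, was lower in both, with 28.8, 26.3 and 24.2 CPM against 65.4, 58.6 and 55.4 in enterocyte-like cells. Without TMM scaling the medians of the stress response and p53 lists in enterocyte-like cells turned from -0.12 and -0.24 to 0.24 and 0.13.

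Other lists depended on cell class. Of 10 interferon response genes 7 were higher over all cells, with Irf7 at 89.5, 109 and 89.7 CPM against 28.4, 25.9 and 28.0; within enterocyte-like cells 2 of 9 were higher and 5 lower (median -0.34, or 0.04 without TMM scaling). MHC class II genes were 5 higher and 1 lower of 7 over all cells, and 1 higher and 6 lower within enterocyte-like cells. Those calls rested on the block: without it 1 call was left over all cells, a higher gene, and 1 within enterocyte-like cells, a lower gene. Glycolysis genes were 3 higher and 5 lower of 12 over all cells and 1 higher and 9 lower within enterocyte-like cells, where Gapdh was at 1398, 1301 and 1247 against 2544, 2709 and 2430 CPM. Genes of actin and tubulin were lower in 9 of 10 over all cells and 8 of 10 within enterocyte-like cells. Tmsb4x, which binds actin monomers, was at 637, 491 and 501 CPM against 2151, 2316 and 2112 over all cells.

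Many of the genes that fell had short transcripts. Protein-coding genes were grouped by the length of their longest annotated transcript. Within enterocyte-like cells, 85.4% of 453 genes of up to 1 kb were lower and 7.28% higher, whereas of 543 genes over 8 kb 72.9% were higher and 5.34% lower. Between these ends the share of higher genes was 6.26% at 1 to 2 kb, 23.5% at 2 to 4 kb and 50.4% at 4 to 8 kb. Over all cells the shares went from 4.12% higher and 78.2% lower among 583 genes of up to 1 kb to 51.7% higher and 17.7% lower among 673 genes over 8 kb. The median longest transcript was 4305 bases for genes higher and 2046 bases for genes lower in enterocyte-like cells. Ribosomal protein and respiratory chain transcripts belong to the short classes, so length and function overlap here.

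**Figure D4:**
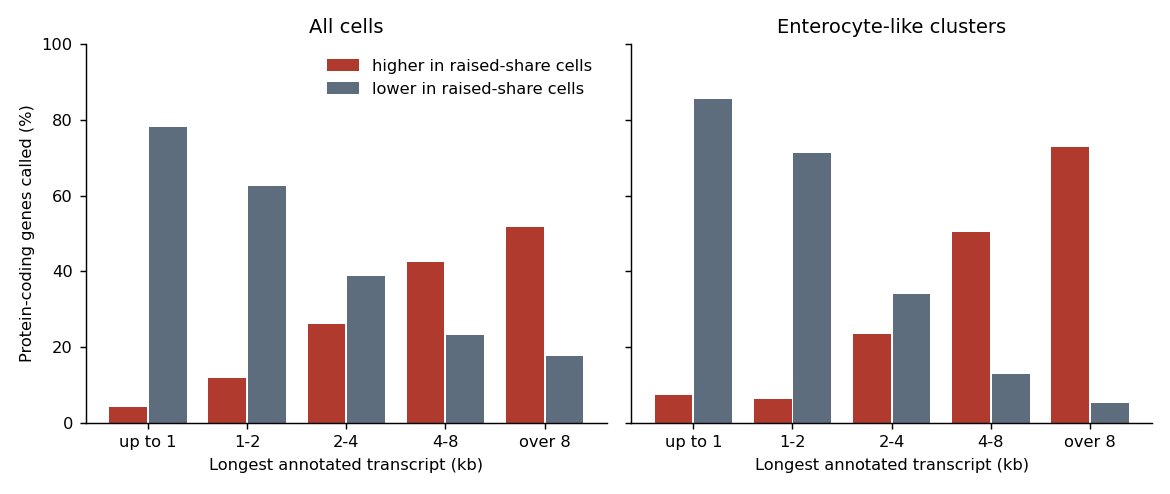
Share of tested protein-coding genes (%) called higher or lower in raised-share cells, by length of the longest annotated transcript (kb), for all cells and for enterocyte-like clusters. In the enterocyte-like clusters lower calls go from 85.4% in the shortest class to 5.34% in the longest, and higher calls from 7.28% to 72.9%.

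Unverified gene models, most of them in introns, were mostly higher. The annotation has a class of unverified transcripts, TEC (to be experimentally confirmable), and 358 of 430 tested TEC genes (83.3%) were higher in raised-share enterocyte-like cells and 4 were lower. Over all cells 414 of 786 (52.7%) were higher and 24 lower, against 29.9% and 34.8% of all genes. Of the 430 genes 337 (78.4%) lay in an intron of a coding gene on the same strand, and 299 of those were higher. Of the 85 with no such intron 57 were higher and 3 lower, so higher calls were not limited to introns. Gm44974, the second leading gene of the main raised-share cluster, lies in an intron of Anpep (chr7:79830593-79831871), which encodes a brush border peptidase. Gm37113 lies in an intron of Rbp2 (chr9:98493968-98495124). In enterocyte-like cells Rbp2 itself was at 9302, 8329 and 7226 CPM against 22685, 23387 and 19825. Over all cells Rbp2 was not called in the main test, though DESeq2 called it lower (-0.27).

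The makeup of the mitochondrial RNA itself also differed, and it was not part of the rule, which used the sum alone. The 16S rRNA mt-Rnr2 made up 35.9%, 31.7% and 36.4% of mitochondrial UMIs in raised-share cells and 28.5%, 23.8% and 28.5% in reference cells. The 12S rRNA mt-Rnr1 was at 14.9%, 12.5% and 16.5% against 12.8%, 9.87% and 13.9%. Both rRNAs were higher in 3 of 3 libraries, with log2 ratios of 0.33, 0.41 and 0.35 for mt-Rnr2. Messenger RNAs were unequal. The share of mt-Cytb was 19.7%, 22.2% and 17.6% against 24.6%, 28.6% and 22.6%, that of mt-Nd4 7%, 7.63% and 6.68% against 9.08%, 9.78% and 8.79%, and that of mt-Nd1 8.86%, 9.83% and 8.37% against 10.9%, 12% and 10.8%. The shares of mt-Co1, mt-Atp6 and mt-Co3 moved by at most 0.13 on the log2 scale. With 3 libraries the smallest exact sign-flip p is 0.25, and as shares of a fixed sum the values are not independent.

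**Figure D5:**
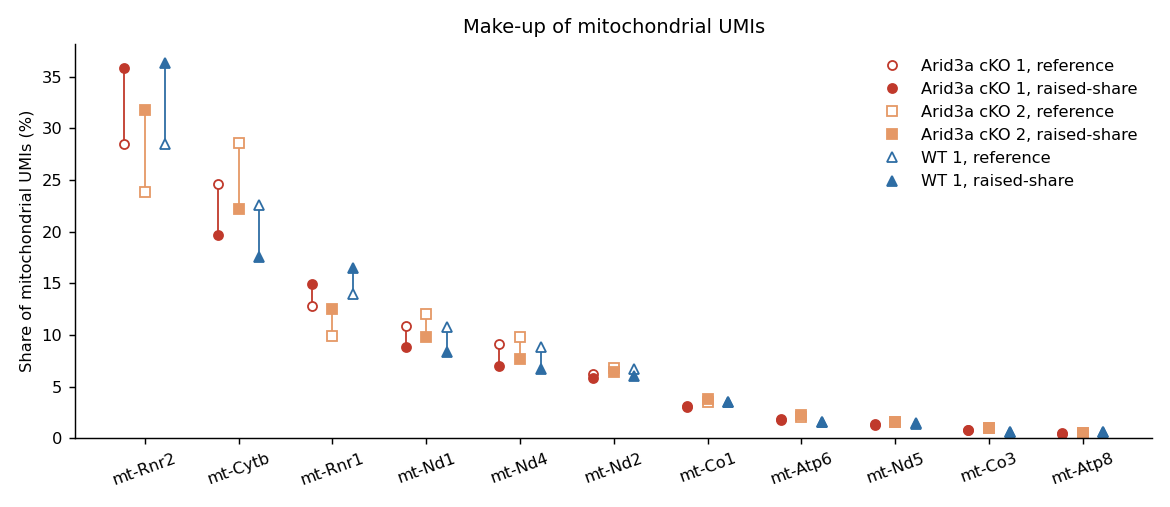
Share of mitochondrial UMIs (%) taken by each of 11 mitochondrial genes in raised-share cells (filled) and reference cells (open) of each library; lines join the groups of a library. The rRNAs mt-Rnr2 and mt-Rnr1 are higher and mt-Cytb, mt-Nd1 and mt-Nd4 lower in raised-share cells of all 3 libraries.

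Genotypes were compared within raised-share cells as a description, since WT had 1 library. Arid3a itself (chr10:79927043-79955018) had 9, 22 and 63 UMIs, or 2.11, 4.28 and 7.64 CPM, so both cKO libraries were below WT. Which exons were removed is not part of the 3′ counts, and UMIs near the 3′ end need not stem from intact transcripts. In reference cells it was at 0.623, 0.935 and 2.72 CPM, and over all 3 libraries Arid3a was higher in raised-share cells (1.60 ± 0.28, adjusted p 0.000122).

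A gene counted as separated when it had a mean of at least 20 CPM and a log2 ratio (CPM + 5) of at least 1 in size and of the same sign in both cKO libraries against WT. Of 5659 genes 17 (0.3%) were separated in raised-share cells, 4 higher and 13 lower in Arid3a cKO, and of 5479 genes 17 (0.31%) in reference cells. The lists shared 10 genes, 58.8% of each, and both come from the same 3 libraries. Higher in cKO were Mir6236, Sco2, which serves the assembly of cytochrome c oxidase, S100g, a calcium-binding protein, and Akp3. S100g was at 1103 and 1450 CPM in cKO against 515 in WT in raised-share cells and at 1123 and 1427 against 555 in reference cells. Sco2 was at 119 and 147 against 47.3 CPM.

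Lower in cKO were, among others, the enteroendocrine genes Afp, Gip and Reg4, of which Afp had 4.45 and 1.75 CPM against 172. Within enterocyte-like raised-share cells none of these genes was separated, with Afp at 1.47 and 1.76 CPM against 2.55. There Gip was at 15.3 and 11.6 CPM against 17.6, and Reg4 at 7.94 and 8.997 against 12.5. In reference cells Afp was separated, while Gip and Reg4 were not. Enteroendocrine-like cells numbered 2, 0 and 9 among raised-share cells, and their part in the values of Afp, Gip and Reg4 was not tested. Over all raised-share cells Cd74, the invariant chain of MHC class II, was at 99.5 and 74.7 CPM against 407. H2-Aa was at 14.8 and 10.3 CPM against 53.1. The antimicrobial lectins Reg3b and Reg3g, listed here after their values were seen, were at 862 and 599 against 2096 CPM and at 519 and 258 against 1317 CPM. Within enterocyte-like raised-share cells 20 of 5380 genes (0.372%) were separated, 6 higher and 14 lower. The WT library also differed in mt-Nd3, which made up 0.465% of mitochondrial UMIs in its raised-share cells against 0.0184% and 0.0201% in the cKO libraries, with 0.484%, 0.017% and 0.0235% in reference cells of WT, Arid3a cKO 1 and Arid3a cKO 2. Gm28438, a nuclear copy that matches mt-Nd3 over 345 bases at 99.7% identity, went the other way, with 492 and 428 CPM in the raised-share cells of the cKO libraries against 0.121 in WT, so UMIs cannot be told apart between the copies.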

How the data were processed

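The authors counted reads with Cell Ranger (5.0.0 per the file headers) and deposited matrices of raw UMI counts per gene and barcode, with no normalization. The submitters' processing notes list GRCh38 and hg19 for these mouse samples, and the build of the counting is not given in the sources used here. Coordinates are those of GRCm38 (GENCODE M21), matched by gene identifier for 51633 of 51912 features. Members, gene lists and tests were chosen with earlier results of these data known. Groups came from the genotype label, with 2 Arid3a cKO libraries and 1 WT library.

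UMIs were summed per library and group. The sums held 4269747, 5143614 and 8241657 non-mitochondrial UMIs in raised-share cells and 67465149, 55628646 and 59109355 in reference cells. The 37 mitochondrial genes stayed out of library sizes and tests. The 16 nuclear copies (blastn 2.17.0, at least 90% identity over 100 bases) stayed out of the tests only. Tests used edgeR 4.0.16 (filterByExpr, TMM, quasi-likelihood, library as a block) with Benjamini-Hochberg adjustment, and DESeq2 1.42.0 was an alternative; scripts were tested on simulated data. Clusters came from Seurat 5.3.0 (R 4.3.3) by canonical correlation analysis with 3000 features, 2000 variable genes, 30 components and resolution 0.3. A cluster took the class with at least 3 markers among its top 50 genes, or else the class with most of its list at 1.5 times the other cells or more, a rule set after the clusters had been seen. Named genes were those of the lists, up to 10 per direction over all cells, 5 per direction within enterocyte-like clusters and 5 per direction between genotypes, called or separated, of 1 sign in every library, with a mean of at least 20 CPM, and ranked by the smallest absolute log2 ratio over libraries. Doublets were kept, and an alternative left out the 5% of barcodes with the most UMIs. Other alternatives were the scaling, the filter, the block, the limits of the rule, the clustering and each library left out.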

Additional observations from a re-analysis of the deposited data

How the results depend on the processing

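Over all cells the number of genes called stayed within 1.5 times of 9522 under all alternatives but the filter on a mean of at least 20 CPM, which tested fewer genes and called 4762; DESeq2 called 8227, and leaving out 1 library gave 7846 to 10077. Within enterocyte-like clusters 4234 genes were called with that filter, 4914 in the Akp3 and S100g cluster alone (added after the data were seen, with fewer cells), 5376 by DESeq2 and 6492 to 6945 with 1 library left out. The raised-share and reference sums of a library were paired by the block. With no replicate block 9449 genes were called over all cells and 6369 within enterocyte-like clusters. The genotypes share only 1 replicate number, so cKO and WT libraries were not paired. Within enterocyte-like clusters the log2 fold change of Lct reversed to 0.35 without TMM scaling and 0.32 at resolution 0.8. In the Akp3 and S100g cluster it reversed to 0.27. Alpi gained a call as higher without TMM scaling (0.41), with the filter on 20 CPM (0.20) and at resolution 0.8 (0.22). The causes were not tested. Over all cells the calls of Fabp2 (without Arid3a cKO 2, without WT or at 15 to 20% only), Reg1 (without Arid3a cKO 2) and Nt5e (without WT) were lost, with edgeR adjusted p of 0.0931, 0.103, 0.152, 0.0773 and 0.0644 in that order, and H2-Ab1 lost its call without the block (0.261). Within enterocyte-like clusters Slc5a1 and Apob lost their calls with no filter (0.1 and 0.244), Rpph1 at resolution 0.8 (0.523) and Atp5sl by DESeq2 (0.0589). The difference in enterocyte-like share was 44.6 points at resolution 0.8, 49.4 without integration and 41.9 by nearest reference cells, and 52.2 to 56.4 with 1 library left out. Between genotypes 72 genes were separated at a log2 ratio of 0.5, and 36 to 51 with 1 cKO library left out, when the sign had to hold in 1 library only. Shallow raised-share sums limit what can be seen of genes under a few CPM.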
